A study of Mus musculus with 6 samples.

Results

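The semaphorins, netrins, Slits and ephrins are ligands that steer migrating cells and growing axons, and the plexins, neuropilins, Eph, Robo and Unc5 proteins are their receptors. These guidance genes were taken by symbol from an RNA-seq table of mouse cells, in which 64 of 16880 listed genes belonged to the families, and the 41 with at least 60 reads summed over the 6 libraries were described. All 41 passed the expression filter of the test, as did 1 of the 23 sparser genes, Plxnc1, with 44 reads with IL-1β and 11 with NP-G2-044. The smallest sums inside the limit were 80 reads for Slit1, 96 for Sema3e and 99 for Epha7, and the largest outside it were 55 for Plxnc1, 48 for Plxna4 and 42 for Sema6d.

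The cells were labelled ATDC5, a mouse chondrogenic line, whereas the methods of the study speak of chondrocytes. A first group of 3 libraries came from cells stimulated with IL-1β at 10 ng/mL, and the second group of 3 from cells given the same IL-1β together with NP-G2-044 at 10 μM, an inhibitor of the actin-bundling protein Fascin1 (FSCN1). Both groups therefore carried the cytokine, for 24 h according to the methods, and unstimulated or DMSO-treated cells were not analysed here, so neither the effect of IL-1β itself nor that of the inhibitor without IL-1β can be read from these values. Sample titles give the compound as NP-G2-044, while a treatment field of the second group reads NP-G2-047. Libraries held 16615824 to 16878164 estimated reads with IL-1β alone and 17529844 to 17735860 with NP-G2-044. Of the 9 chondrocyte markers listed in the table Matn1 was at 0 in all libraries, Acan was not analysed here, and Col2a1, the cartilage collagen, averaged 0.217 TPM (a level scaled for transcript length and library total) with IL-1β and 0.04 TPM with NP-G2-044. Some other markers on the list were more abundant and did not share a direction. Sox9 averaged 6.44 TPM with IL-1β and 11.4 TPM with NP-G2-044, Sox5 10.3 and 2.27 TPM, and Col11a2 5.01 and 3.43 TPM.

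Class 3 semaphorins are secreted and act through a holoreceptor in which a neuropilin binds the ligand and an A-type plexin carries the signal, except that Sema3e can bind plexin D1 directly. Plexins act as GTPase-activating proteins for small G proteins and thereby loosen integrin adhesion and reorganise actin, while Eph receptors are tyrosine kinases whose ephrin ligands sit on neighbouring cells and can signal in reverse. In the skeleton, several of these families take part in osteoblast and osteoclast communication and in the patterning of vessels and nerves around cartilage and bone.

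Guidance genes were mostly lower in the presence of the inhibitor. With the cutoffs of the study, an adjusted p below 0.05 (edgeR quasi-likelihood test, Benjamini-Hochberg over 11983 genes) and a log2 fold change beyond 1 in either direction, 15 of the 41 genes were lower and 2 were higher with NP-G2-044. These are 36.6% lower, where 10.1% of all tested genes were lower, and 4.88% higher, where 6.48% of all tested genes were higher, so that 41.5% of the guidance genes against 16.6% of all genes passed both cutoffs. The lower genes were Sema3a, Sema3c, Sema3d, Sema3e, Sema3f, Sema6b, Sema6c, Nrp1, Plxnb3, Epha7, Ephb2, Ephb3, Ephb6, Robo1 and Ntn1, and the higher ones Sema6a and Plxna3. By adjusted p alone 27 genes were lower and 8 higher, which is 85.4% of the guidance genes against 80.0% of all genes (39.8% lower and 40.2% higher), a share close to the background. The TPM of the groups did not overlap for 35 of the 41 genes, again 85.4%, where 79.4% of all tested genes did not overlap. Their median log2 fold change was −0.69, against 0.00 over all genes tested, and the median absolute change was 0.86 against 0.39.

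Of the 15 lower genes 6 met the filter of the test in all libraries of the IL-1β group only. Among all 41 genes 7 (Sema3a, Sema3d, Sema3e, Sema6b, Plxnb3, Epha7 and Slit1) reached the minimum of the filter (0.581 CPM, that is counts scaled to the library total) in all libraries of the IL-1β group but not in all of the NP-G2-044 group, and none did so the other way round. Epha7 was at this limit, with 12, 10 and 10 reads with NP-G2-044. Such genes entered the test through the group in which they were high. Among the 34 genes at the minimum in all 6 libraries, 9 were lower past both cutoffs and 2 higher, 26.5% and 5.88%, where the same requirement over all genes gave 7.75% lower and 5.57% higher. In bulk RNA, fewer cells of a type and less RNA per cell cannot be told apart. The p-values set the difference between groups against the spread between these libraries only.

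**Figure D1:**
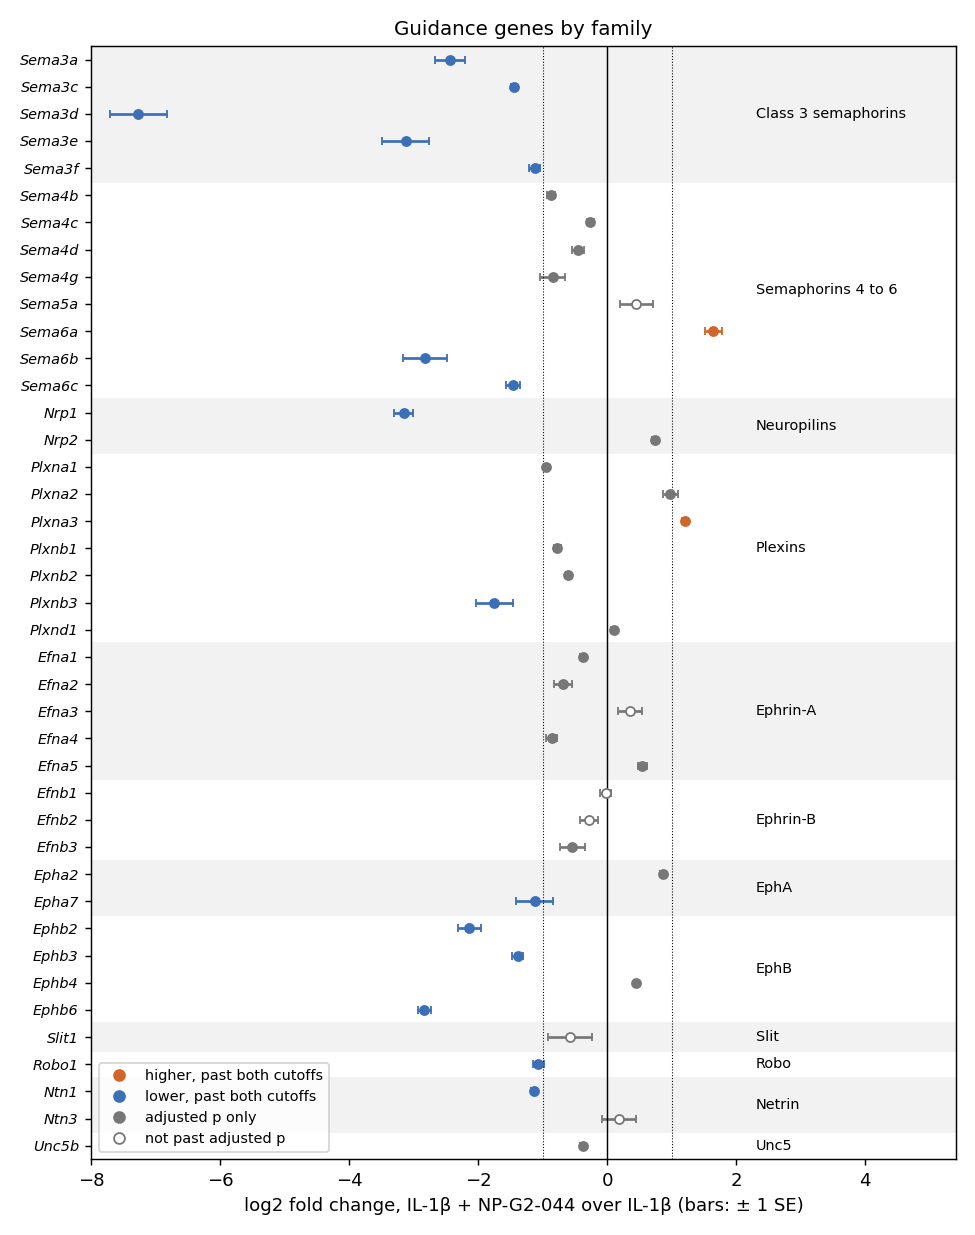
Fitted log2 fold changes of the 41 guidance genes (x axis, IL-1β with NP-G2-044 over IL-1β alone, bars ± 1 SE, n = 3 libraries per group), listed by family with dotted lines at the fold cutoff of 1. All 5 class 3 semaphorins and 3 of 4 EphB receptors lie left of the lower line, and Sema6a and Plxna3 lie right of the upper one. The position of Sema3d depends on how its near absence of reads is handled in the fit.

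Class 3 semaphorins fell together, as all 5 described members were lower past both cutoffs and the groups overlapped for none of them, where 10.1% of all tested genes were lower and 79.4% did not overlap. Sema3a, Sema3d and Sema3e met the filter in all libraries of the IL-1β group only, in which they were high. Sema3c, which guides neural crest and vascular cells, carried most of the family's message, with 18.73, 18.34 and 18.82 TPM with IL-1β and 6.6, 6.66 and 6.77 TPM with NP-G2-044 (log2 fold change −1.45, SE 0.0535, adjusted p = 1.6e-30). Sema3f, a ligand for neuropilin 2 that repels endothelial cells, stood at 8.94, 8.86 and 8.73 TPM and fell to 4.05, 3.94 and 3.87 TPM (−1.13, SE 0.0846, adjusted p = 1.71e-17). In both genes the libraries of a group lay close together compared with the distance between groups. Sema3a, the prototype axon repellent and a known factor in bone, was found at 1.13, 0.92 and 0.94 TPM against 0.24, 0.2 and 0.12 TPM (−2.44, SE 0.238, adjusted p = 1.96e-13).

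Sema3d and Sema3e were close to undetected with the inhibitor. For Sema3d, 1.04, 1.03 and 0.99 TPM with IL-1β faced 0, 0 and 0.01 TPM with NP-G2-044, or 203 reads in all against 1. That is a read ratio of 214, with a 95% counting interval of 37.9 to 8480 that covers counting error only, and the fitted log2 fold change (−7.27, adjusted p = 2.3e-21) depends on the prior count and is no bound. Sema3e, the ligand of plexin D1, had 0.42, 0.35 and 0.46 TPM against 0.05, 0.04 and 0.04 TPM, and its 86 against 10 reads gave a ratio of 9.05 (4.69 to 19.6, with a fitted log2 fold change of −3.13 and adjusted p = 4.93e-11). Both genes were low even where they were highest, at about 1 TPM or less. Summed over the class, semaphorin message amounted to 29.9 TPM ± 0.382 (SD, n = 3) with IL-1β and 10.9 TPM ± 0.0681 with NP-G2-044. The share of Sema3c in that sum was similar in both groups, 62.3% ± 0.496 and 61.5% ± 1.15, and its libraries overlapped.

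Of the 5 described class 3 genes, 4 lie within a single stretch of the mouse genome (GRCm38.p6), in the order Sema3d, Sema3a, Sema3e and Sema3c on chromosome 5 between 12383161 and 17730268, a stretch of 5.35 Mb. The table lists 17 genes there, and besides the 4 semaphorins only Cacna2d1, a calcium channel subunit, had enough reads for the test. Cacna2d1 averaged 3.52 TPM with IL-1β and 3.62 TPM with NP-G2-044 (log2 fold change 0.11, adjusted p = 0.236, edgeR). The fifth gene, Sema3f, lies on chromosome 9.

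The starts of these 4 neighbouring genes and of both neuropilins are shown because they moved apart in size or direction. Each line gives the 100 bases before a transcript start from the RefSeq promoter table (GRCm38.p6), 5′ to 3′ in the direction of transcription and all on the plus strand, at chr5:12383066-12383165 for Sema3d, chr5:13396684-13396783 for Sema3a, chr5:14025176-14025275 for Sema3e, chr5:17574716-17574815 for Sema3c, chr8:128358973-128359072 for Nrp1 and chr1:62703217-62703316 for Nrp2. The entries of Sema3a and Nrp1 lie inside their annotated genes, and that of Sema3d reaches into its gene.
Sema3d: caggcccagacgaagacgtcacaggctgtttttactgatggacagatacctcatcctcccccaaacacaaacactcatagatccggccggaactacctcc
Sema3a: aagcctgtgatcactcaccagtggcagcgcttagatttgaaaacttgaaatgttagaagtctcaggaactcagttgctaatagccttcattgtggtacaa
Sema3e: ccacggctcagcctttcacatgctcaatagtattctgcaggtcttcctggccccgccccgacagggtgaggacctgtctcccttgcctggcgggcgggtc
Sema3c: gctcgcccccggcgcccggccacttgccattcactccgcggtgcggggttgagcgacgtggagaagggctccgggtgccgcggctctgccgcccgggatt
Nrp1: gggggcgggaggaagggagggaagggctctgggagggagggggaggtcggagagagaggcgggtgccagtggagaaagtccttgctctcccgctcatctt
Nrp2: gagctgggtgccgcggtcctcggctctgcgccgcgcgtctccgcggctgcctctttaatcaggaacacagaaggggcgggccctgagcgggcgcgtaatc
G and C made up 53% of these bases for Sema3d, 42% for Sema3a, 64% for Sema3e and 75% for Sema3c, so the neighbours differ widely in base composition, with a median of 65.0% over 12355 such stretches of tested genes. The neuropilin starts were alike by this measure, 67% for Nrp1 and 70% for Nrp2.

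The receptors that take up these ligands went in opposite directions. Neuropilin 1, which binds Sema3a and also VEGF-A, was lower, at 3.12, 3.4 and 3.04 TPM with IL-1β and 0.22, 0.39 and 0.43 TPM with NP-G2-044 (log2 fold change −3.16, SE 0.152, adjusted p = 2.1e-25). Neuropilin 2, the preferred receptor of Sema3f, was higher by adjusted p but under the fold cutoff, at 44.82, 47.58 and 49.81 TPM and 78.5, 77.9 and 72.9 TPM (0.73, SE 0.0323, adjusted p = 1.05e-25). Neither gene overlapped between groups, where 79.4% of all tested genes did not overlap. Since Nrp2 was already the more abundant of the pair, its share of neuropilin TPM moved from 93.7% ± 0.490 to 99.6% ± 0.158, while that of Nrp1 went from 6.31% to 0.455%. The neuropilin sum went from 50.6 TPM ± 2.48 to 76.8 TPM ± 2.98. A microRNA gene, Mir1903, shares 80 exon bases with Nrp1 on the same strand in the GENCODE annotation.

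**Figure D2:**
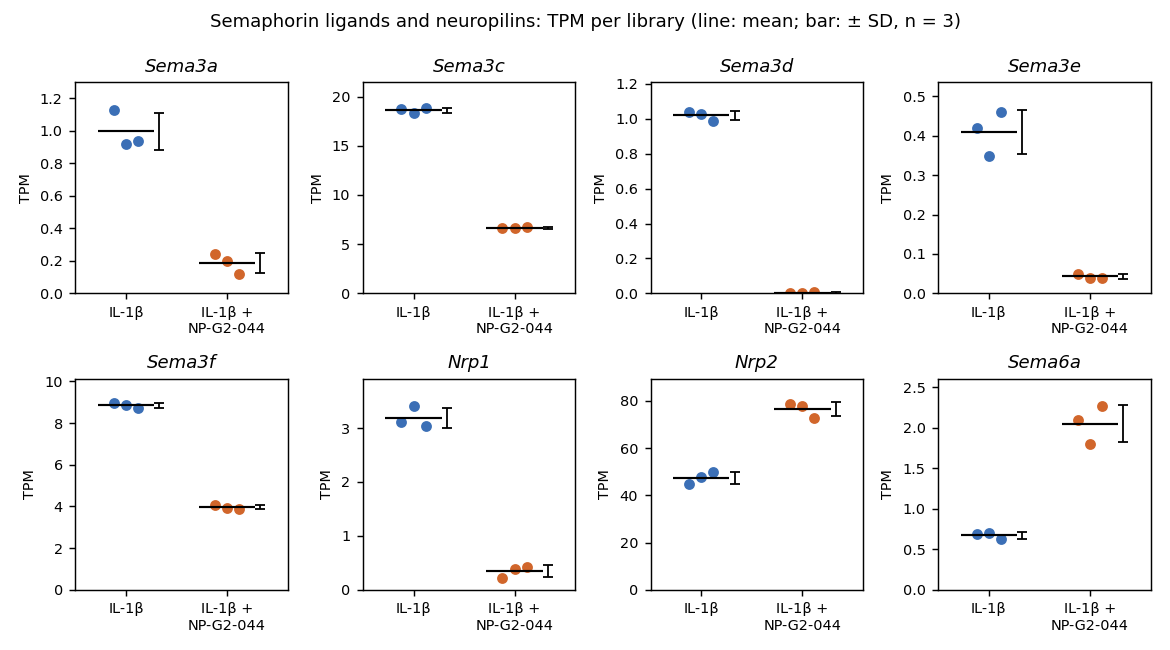
TPM (y axis, from 0) of semaphorin and neuropilin genes in each library, with points for the libraries, lines for the group means and bars of ± 1 SD (n = 3 per group). Sema3a, Sema3c, Sema3d, Sema3e and Nrp1 have all 3 NP-G2-044 points under the IL-1β points, whereas Nrp2 has them above.

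Among plexins, the A types exchanged rank while the B types were all lower, Plxnb1 and Plxnb2 by adjusted p only. Plxna3, which pairs with neuropilins, was at 9.67, 9.91 and 10.63 TPM with IL-1β and at 22.94, 23.06 and 22.44 TPM with NP-G2-044 (log2 fold change 1.21, SE 0.0432, adjusted p = 3.4e-31). Plxna1, a partner of the same co-receptors, was at 39.21, 40.94 and 42.44 TPM and 20.44, 21.29 and 20.16 TPM (−0.95, SE 0.0323, adjusted p = 3.53e-32), lower by adjusted p and just short of the fold cutoff. The groups were apart for both genes, where 80.0% of all tested genes passed by adjusted p and 79.4% did not overlap. The share of Plxna1 in A-type plexin TPM went from 79.2% ± 0.236 to 46.1% ± 0.451 as that of Plxna3 went from 19.5% ± 0.276 to 51.0% ± 0.482. Plxna2, a receptor of Sema6a, was at 0.68, 0.69 and 0.67 TPM against 1.39, 1.38 and 1.16 TPM (0.98, SE 0.115, adjusted p = 6.8e-11). It rose by adjusted p and stayed under the fold cutoff, which it passed at 1.06 without NP-G2-044 replicate 3. Plxna1 shares 970 exon bases with Gm26811 on the opposite strand, and whether reads were counted by strand was not stated.

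The B-type plexins Plxnb1 and Plxnb2 bind class 4 semaphorins. Plxnb2 was the most abundant guidance gene with IL-1β, at 109.8, 117 and 115 TPM, and had 75.7, 75.8 and 70.0 TPM with NP-G2-044 (−0.60, SE 0.0294, adjusted p = 3.55e-25). Plxnb1, the receptor of Sema4d, had 9.66, 10.64 and 11.27 TPM and 6.05, 6.26 and 5.92 TPM (−0.77, SE 0.0527, adjusted p = 1.3e-18). These 2 genes fell by adjusted p with no overlap, short of the fold cutoff. Over all tested genes 80.0% passed by adjusted p and 79.4% did not overlap. Plxnb3 was rare, at 0.73, 0.56 and 0.52 TPM and 0.17, 0.27 and 0.13 TPM, and its 94 against 29 reads gave a ratio of 3.41 (2.23 to 5.37) and a log2 fold change of −1.75 (adjusted p = 3.06e-07). Plxnb3 met the filter of the test in all libraries of the IL-1β group only, in which it was high. Plxnd1, the receptor of Sema3e, had 12.42, 11.89 and 11.74 TPM and 12.64, 12.94 and 12.13 TPM, which overlap (0.10, SE 0.0454, adjusted p = 0.0448). Its adjusted p ranged up to 0.165 when single libraries were left out. Exons of Plxnb1 share 257 bases with Gm7628 on the opposite strand. All described plexins together went from 188.8 TPM ± 5.68 to 137.4 TPM ± 4.84.

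**Figure D3:**
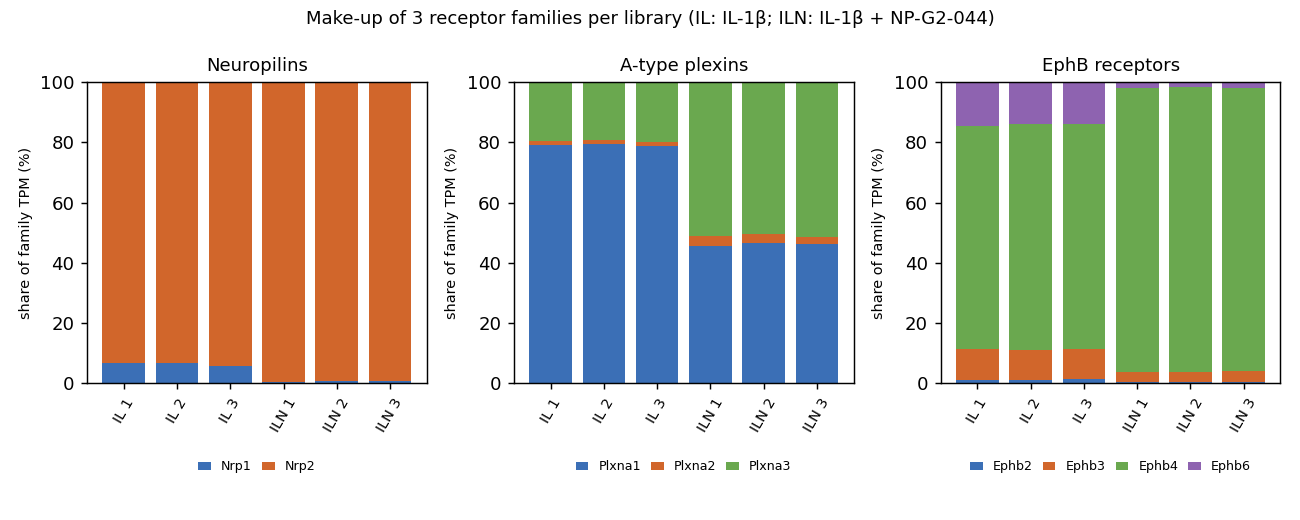
Share of the family's summed TPM (y axis, percent) taken by each member in each of the 6 libraries (x axis, IL for IL-1β and ILN for IL-1β with NP-G2-044). Nrp2 goes from 93.7% to 99.6% of neuropilin TPM, Plxna1 from 79.2% to 46.1% of A-type plexin TPM and Ephb4 from 74.7% to 94.4% of EphB TPM, with little difference between libraries of a group.

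Membrane-bound semaphorins were mixed: of 8 members in classes 4 to 6, 2 were lower and 1 higher past both cutoffs, 6 lower and 1 higher by adjusted p alone, and Sema5a did not pass. Over all tested genes 10.1% were lower and 6.48% higher past both cutoffs, and 80.0% passed by adjusted p. Sema6b met the filter of the test in all libraries of the IL-1β group only, in which it was high. Sema6a, a transmembrane ligand of A-type plexins, was higher, with 0.69, 0.7 and 0.62 TPM with IL-1β and 2.09, 1.8 and 2.26 TPM with NP-G2-044 (log2 fold change 1.65, SE 0.132, adjusted p = 2.14e-16). Its relatives of the same class went the other way. Sema6c had 4.87, 5.19 and 4.94 TPM against 1.74, 1.77 and 1.8 TPM (−1.46, SE 0.110, adjusted p = 1.53e-17), and Sema6b had 0.85, 0.73 and 0.83 TPM against 0.08, 0.1 and 0.15 TPM, 90 against 13 reads and a ratio of 7.29 (4.05 to 14.2, with a fitted −2.83 and adjusted p = 1.25e-10). None of the 3 class 6 genes overlapped between groups, where 79.4% of all tested genes did not overlap. The class 4 ligands that meet the B plexins were lower by adjusted p only, Sema4d going from 6.88, 8 and 6.12 TPM to 4.59, 4.85 and 5.5 TPM (−0.45, adjusted p = 1.32e-05) and Sema4c from 15.94, 17.17 and 15.62 TPM to 14.38, 13.14 and 12.94 TPM (−0.27, adjusted p = 1.85e-05). The summed TPM of the 8 went from 46.7 ± 1.87 to 31.6 ± 0.238.

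Among EphB receptors, Ephb4, the receptor that answers ephrin-B2 between vessels and in bone, was the main one, with 58.19, 59.34 and 56.14 TPM with IL-1β and 77.7, 80.2 and 73.4 TPM with NP-G2-044 (log2 fold change 0.45, SE 0.0326, adjusted p = 5.73e-18), higher by adjusted p only. The other 3 were lower past both cutoffs, where 10.1% of all tested genes were lower. Ephb6, a family member that lacks kinase activity, was at 11.45, 11 and 10.47 TPM and 1.54, 1.34 and 1.6 TPM (−2.83, SE 0.0991, adjusted p = 1.31e-31). Ephb3 was at 8.01, 7.85 and 7.52 TPM and 2.85, 2.97 and 2.89 TPM (−1.39, SE 0.0873, adjusted p = 1.5e-20). Ephb2, at 0.76, 0.79 and 0.95 TPM and 0.22, 0.17 and 0.16 TPM (−2.14, SE 0.178, adjusted p = 6.53e-16), was under 1 TPM in all libraries. No EphB gene overlapped between groups, where 79.4% of all tested genes did not overlap. Ephb4 made up 74.7% ± 0.464 of EphB TPM with IL-1β and 94.4% ± 0.334 with the inhibitor, while the EphB sum was 77.5 TPM ± 2.11 and 81.7 TPM ± 3.36.

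Of the EphA receptors only Epha2 and Epha7 were described. Epha2, an epithelial and tumour cell receptor that binds ephrin-A1, was at 13.95, 15.68 and 14.61 TPM and 25.42, 26.44 and 25 TPM (0.86, SE 0.0490, adjusted p = 2.41e-22), higher by adjusted p without overlap and under the fold cutoff. Epha7 was at 0.39, 0.35 and 0.47 TPM and 0.16, 0.14 and 0.22 TPM (−1.13, SE 0.293, adjusted p = 0.000504), lower past both cutoffs without overlap, from 99 reads in total. Epha7 met the filter of the test in all libraries of the IL-1β group only, in which it was high. Over all tested genes 10.1% were lower past both cutoffs, 80.0% passed by adjusted p and 79.4% did not overlap.

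None of the ephrin ligands passed both cutoffs. By adjusted p alone 4 of 8 were lower and 1 higher, and 3 did not pass, where 80.0% of all tested genes passed. Efna1, the leading ephrin, was at 81.3, 87.6 and 83.5 TPM and 66.3, 61.9 and 62.7 TPM (−0.37, SE 0.0436, adjusted p = 5.34e-11), and Efna4 at 19.19, 19.05 and 21.53 TPM and 10.32, 11.09 and 10.81 TPM (−0.86, SE 0.0867, adjusted p = 5.31e-13). Both fell without overlap, where 79.4% of all tested genes did not overlap. Ephrin-A message in all went from 115.9 TPM ± 3.20 to 87.3 TPM ± 2.01. The share of Efna1 in it overlapped between groups, at 72.6% ± 1.01 and 72.9% ± 0.989. Efnb1, whose loss disturbs skeletal patterning, was at 6.7, 7 and 6.09 TPM and 6.03, 5.9 and 7.08 TPM (−0.02, unadjusted 95% interval −0.20 to 0.15, adjusted p = 0.814), and Efnb2 at 1.9, 2.85 and 2.35 TPM and 2.25, 1.54 and 1.73 TPM (−0.28, unadjusted 95% interval −0.56 to −0.01, adjusted p = 0.0652). Both overlapped between groups. Exons of Efna4 and of the long RNA gene 4731419I09Rik share 168 bases on opposite strands.

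In the Slit, Robo, netrin and Unc5 families few members were expressed. Ntn1, a secreted cue that attracts or repels according to the receptor it meets, was at 19.95, 21.72 and 20.59 TPM with IL-1β and 9.2, 9.61 and 8.92 TPM with NP-G2-044 (log2 fold change −1.13, SE 0.0466, adjusted p = 1.99e-28). Its receptor Unc5b, also a dependence receptor of endothelial cells, was at 21.27, 21.66 and 21.56 TPM and 16.63, 15.57 and 16.11 TPM (−0.38, SE 0.0406, adjusted p = 2.79e-12). Robo1, the main Slit receptor, was at 3.77, 4.17 and 4.11 TPM and 1.99, 1.74 and 1.84 TPM (−1.07, SE 0.0844, adjusted p = 1.03e-16). All 3 were lower without overlap, Unc5b under the fold cutoff, where 79.4% of all tested genes did not overlap. The Slits that Robo1 binds were hardly seen, since Slit2 had no read in any library, which allows up to 3 reads in a library, Slit3 had 4 reads in all and Slit1 80.

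**Figure D4:**
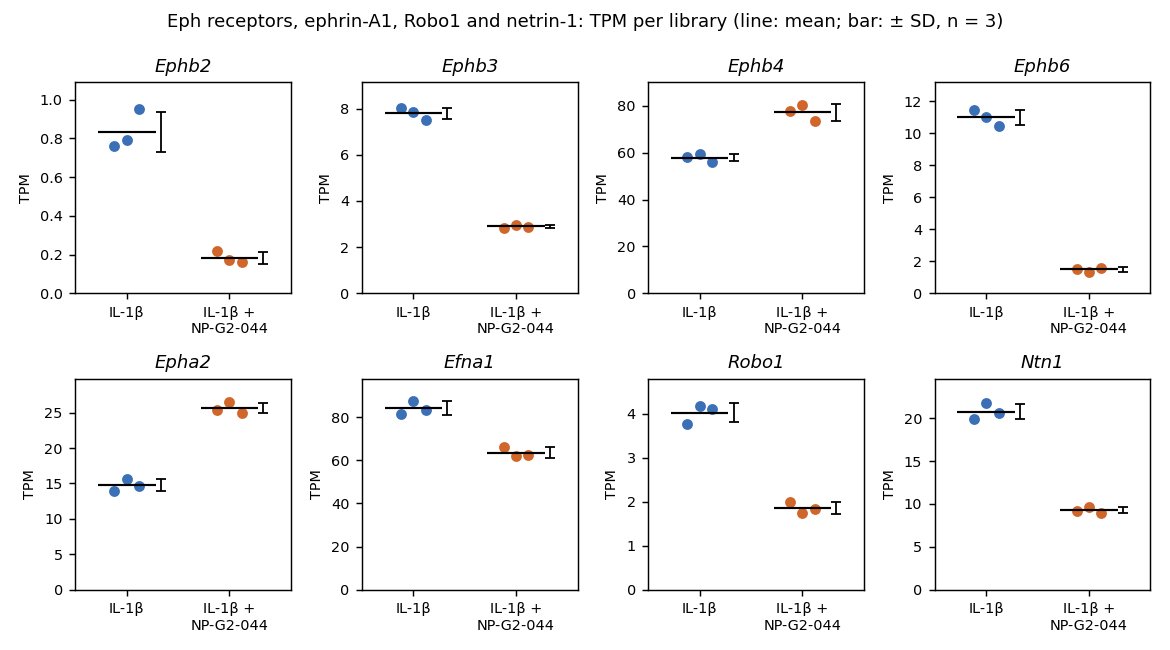
TPM (y axis, from 0) of Eph receptors, ephrin-A1, Robo1 and netrin 1 per library, with lines for group means and bars of ± 1 SD (n = 3 per group). Ephb2, Ephb3, Ephb6, Robo1 and Ntn1 are lower in all 3 NP-G2-044 libraries, Ephb4 and Epha2 are higher in them, and Efna1 is moderately lower.

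Ligand and receptor were next set side by side for 12 known pairs. Both partners were lower past both cutoffs for Sema3a with Nrp1 (−2.44 and −3.16) and for Sema3c with Nrp1 (−1.45 and −3.16). For Sema6a with Plxna2 both were higher (1.65 and 0.98), the receptor by adjusted p only. Partners went apart where the ligand fell and the receptor rose, as in Sema3f with Nrp2 (−1.13 and 0.73), Sema3c with Nrp2 (−1.45 and 0.73) and Efna1 with Epha2 (−0.37 and 0.86). In other pairs the larger fitted change was that of the ligand, for example Sema3e with Plxnd1 (−3.13 and 0.10) and Ntn1 with Unc5b (−1.13 and −0.38), or that of the receptor, as in Efnb1 with Ephb2 (−0.02 and −2.14) and Efnb2 with Ephb4 (−0.28 and 0.45). Sema4d with Plxnb1 (−0.45 and −0.77) and Sema4c with Plxnb2 (−0.27 and −0.60) were lower on both sides by adjusted p alone. These are log2 fold changes of single genes, and no test of the pairing was made.

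By role, 8 of 24 ligands fell and 1 rose past both cutoffs (median change −0.63 on the log2 scale), and 7 of 17 receptors fell and 1 rose (median −0.77), where 10.1% of all tested genes fell and 6.48% rose. These counts include the 6 lower genes that met the filter in all IL-1β libraries only (Sema3a, Sema3d, Sema3e and Sema6b among the ligands, Plxnb3 and Epha7 among the receptors). The 9 described genes not named by the rule (Sema4b, Sema4g, Sema5a, Efna2, Efna3, Efna5, Efnb3, Slit1 and Ntn3) had log2 fold changes from −0.88 to 0.54. By adjusted p 5 of them passed, where 80.0% of all tested genes passed. Tested against a fold change of 2 rather than against no change, Sema3f, Robo1 and Epha7 no longer passed (adjusted p = 0.165, 0.518 and 0.895, edgeR). Abundance was spread widely, with 14 genes at 10 TPM or more over all libraries, 15 from 1 to 10 TPM and 12 under 1 TPM. Of the 17 that passed both cutoffs, 4 (Sema3c, Ntn1, Plxna3 and Ephb6) averaged at least 10 TPM in the higher group, and 6 (Sema3a, Sema3e, Sema6b, Plxnb3, Epha7 and Ephb2) averaged under 1 TPM in both groups. The order of levels changed as well. With IL-1β the 5 leading genes were Plxnb2, Efna1, Ephb4, Nrp2 and Plxna1, each above the next in all libraries, and with NP-G2-044 they were Ephb4, Nrp2, Plxnb2, Efna1 and Epha2, among which neighbours were not all separated by their ranges. Ephb6 moved from rank 14 to 27, Plxna3 from 16 to 6 and Epha2 from 12 to 5.

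**Figure D5:**
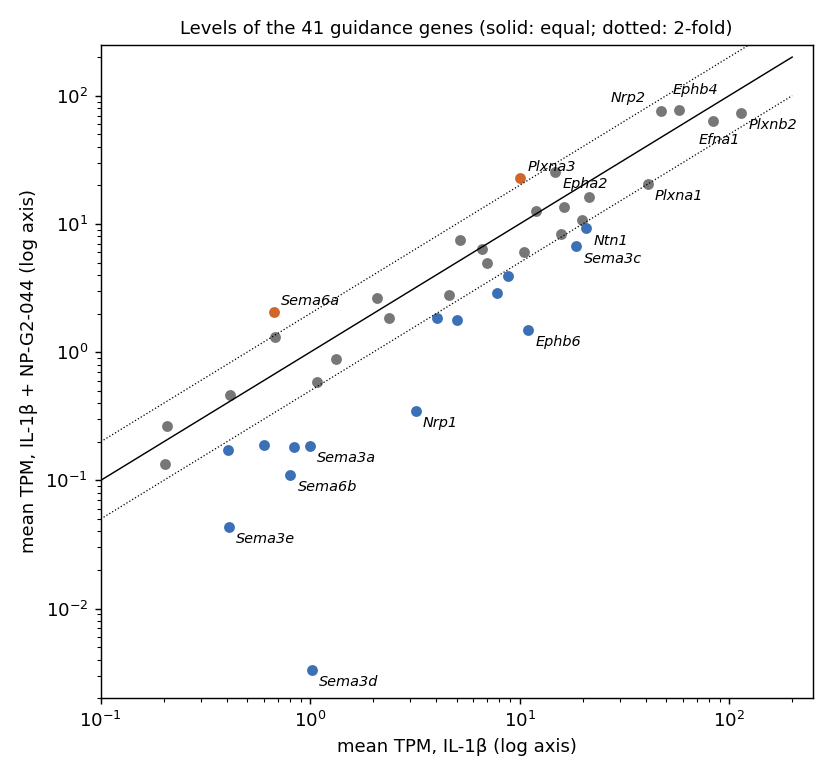
Mean TPM of the 41 guidance genes with IL-1β (x axis, log scale) and with IL-1β and NP-G2-044 (y axis, log scale), where the solid line marks equal levels and dotted lines a 2-fold difference. Genes past both cutoffs are coloured (blue lower, orange higher), and most blue points lie under 10 TPM on both axes, with Sema3d farthest from the line at 0.00333 TPM with the inhibitor.

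Promoter sequence was searched for 4 motifs in 45 RefSeq windows of 300 bases (250 before and 50 after the start) that matched 35 of the 41 genes, on both strands, and in all 32851 windows of the table. The CArG box of SRF, an actin-responsive factor, was found in 1.63% of all windows and in 4.44% of those of guidance genes (2 windows, Robo1 and Sema4d). The TEAD motif GGAATG was in 14.7% and 11.1% (Efnb2, Epha2, Ntn3, Plxnb1 and Plxnd1), the AP-1 motif TGANTCA in 7.81% and 6.67% (Sema4c, Sema4d and Sema6b), and the ATF4 motif TGATGNAA in 3.97% of all windows and in none of these genes. The windows differ in base composition, with a median of 65.3% G and C in those of guidance genes and 52.7% in all windows. The shares were not adjusted for this. The matches did not overlap one another. Examples in genes that changed are given 5′ to 3′ as the 250 bases before the start, with the match in capitals: the CArG box 60 bases before an internal start of Robo1 (chr16:72662899-72663148, plus strand), TEAD motifs on the reverse strand 243 and 56 bases before that of Epha2 (chr4:141300971-141301220, plus strand), and AP-1 at 48 bases before one of the starts of Sema6b (chr17:56133853-56134102, minus strand). The windows of Robo1 and Sema6b lie inside their annotated genes.
Robo1: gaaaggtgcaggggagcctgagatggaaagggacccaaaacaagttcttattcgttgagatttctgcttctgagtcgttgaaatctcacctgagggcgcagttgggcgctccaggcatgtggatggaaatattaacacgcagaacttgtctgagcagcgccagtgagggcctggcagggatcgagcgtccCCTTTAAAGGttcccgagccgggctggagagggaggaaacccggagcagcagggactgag
Epha2: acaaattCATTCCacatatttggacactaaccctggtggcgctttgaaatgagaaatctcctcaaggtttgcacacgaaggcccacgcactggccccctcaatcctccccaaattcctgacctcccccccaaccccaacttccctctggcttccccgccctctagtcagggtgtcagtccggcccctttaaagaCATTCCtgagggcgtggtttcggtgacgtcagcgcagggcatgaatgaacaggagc
Sema6b: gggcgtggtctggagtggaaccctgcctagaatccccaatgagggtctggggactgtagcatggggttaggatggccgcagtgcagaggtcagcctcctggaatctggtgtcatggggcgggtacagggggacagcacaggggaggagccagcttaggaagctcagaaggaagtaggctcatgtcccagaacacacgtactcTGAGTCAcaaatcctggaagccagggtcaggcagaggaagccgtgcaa
A match says only that these letters occur, and the shares were not tested.

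Co-receptors, modulators and intracellular effectors of the guidance receptors were taken from lists of genes outside the families. Of 67 tested genes of these lists, 7 were higher and 6 lower past both cutoffs, 19.4% against 16.6% of all genes, and their median change was 0.02 on the log2 scale. Among 9 tested co-receptors and modulators 3 were higher and none lower, among them Vegfa, the growth factor that also binds neuropilins, at 29.28, 29.37 and 27.57 TPM and 92.0, 89.3 and 89.0 TPM (1.68, SE 0.0367, adjusted p = 4.88e-41), and the proteoglycan Gpc1 at 15.8, 17.09 and 16.7 TPM and 40.95, 43.71 and 40.89 TPM (1.37, SE 0.0450, adjusted p = 7.51e-33). Of 23 tested plexin effectors 3 were higher, namely Dpysl3 (a collapsin response mediator, 2.04, 15.6 to 62.9 TPM), the kinase Fyn (1.69, 22.5 to 71.5 TPM) and the GTPase Rnd1 (1.31, 16.2 to 39.3 TPM), and 4 were lower, with Rnd3, a relative of Rnd1, at −1.81 (17.7 to 4.93 TPM). The other lower ones were under the mean of 10 TPM set for naming: Mical2 at −2.32 (14.8 to 2.98 TPM), Fes at −1.23 and Dpysl5 at −1.18. The groups did not overlap for Vegfa, Gpc1, Dpysl3, Fyn, Rnd1 and Rnd3, all named for passing both cutoffs, where 79.4% of all tested genes did not overlap. None of 15 tested Eph effectors passed both cutoffs, and 8 were lower and 3 higher by adjusted p, a cutoff that 80.0% of all genes passed. Among 20 tested effectors of Robo, DCC and Unc5 receptors 1 was higher and 2 lower, the more abundant being Enah, an actin filament elongator, at 96.5, 101 and 97.1 TPM and 46.18, 43.79 and 43.36 TPM (−1.13, SE 0.0302, adjusted p = 6.01e-37).

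Markers of other cell types were summed in the same libraries. The summed TPM of 9 fibroblast markers, mostly collagen and vimentin message, lay between 3328 and 3420 in the IL-1β libraries and between 1661 and 1722 in the NP-G2-044 libraries, with 4 of 7 tested genes lower and 1 higher past both cutoffs. Over all tested genes 10.1% were lower and 6.48% higher past both cutoffs. For 4 neuron markers the sums were 6.48 to 7.40 TPM and 19.5 to 21.6 TPM, nearly all of it Tubb3, and Stmn2 was at 0. For 5 macrophage markers they were 10.9 to 14.1 TPM and 124.0 to 134.8 TPM, which was almost wholly Cd68 with Ptprc at 0 in all libraries. The sum of 5 endothelial markers was under 1 TPM in all libraries, and that of the 9 chondrocyte markers was 21.9 to 22.7 TPM and 17.1 to 17.6 TPM. Their part in the guidance gene values was not tested.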

How the data were processed

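RNA-seq libraries of ATDC5 cells with IL-1β (3 libraries) or IL-1β and NP-G2-044 (3 libraries) were grouped by their sample labels, and the methods call them biological replicates. The authors deposited estimated counts per gene (10.2% to 11.1% of values are not whole), TPM and FPKM, all in 1 table. According to the methods, BGI extracted the RNA, quantified the final libraries and did the sequencing. The submitters' processing notes name cutadapt, HISAT2 2.0, StringTie and the build mm10. The sources used here give neither the annotation nor the strand setting of the counting. The deposited FPKM and group means entered no test.

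Here, the deposited estimated counts were rounded and tested with edgeR 4.0.16 (R 4.3.3, TMM scaling, filterByExpr at a minimum count of 10, robust quasi-likelihood F test, Benjamini-Hochberg over 11983 genes). The SE is the absolute log2 fold change over the square root of F. The deposited TPM, scaled by the authors per transcript length, gave levels, shares and overlaps, and 95% ratio intervals are exact binomial intervals of pooled reads for genes with a group under 30 reads. Named genes were those past both cutoffs, the 10 with the highest mean TPM and the members of listed ligand and receptor pairs, and for the effector lists those past both cutoffs with a mean of at least 10 TPM. The members and lists were chosen with earlier results of these data known. Alternatives were DESeq2 1.42.0 and its size factors, library size alone, limma 3.58.1 on voom values and on log2(TPM + 1) and log2(TPM + 0.1), no filter, a filter of 10 CPM in 3 libraries, a test against a fold change of 2, a replicate block and leaving out each library. Precision is limited by 16615824 to 17735860 reads per library and by 3 libraries per group.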

Additional observations from a re-analysis of the deposited data

How the results depend on the processing

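Over all alternatives, 88 of 96 counts of genes past a cutoff stayed within 1.5 times the value reported, and named genes kept their direction and their side of the adjusted p cutoff in 470 of 502 comparisons, the fold cutoff not being counted here. The counts that moved came from 3 alternatives. With limma on log2(TPM + 1), 1 guidance gene was higher and 7 lower past both cutoffs, a pseudocount that understates changes of low genes (Sema3a, Sema3e, Sema3f, Sema6a, Sema6b, Plxnb3, Epha7, Ephb2 and Robo1 fell under the fold cutoff, and Epha7 did so at −0.88 with log2(TPM + 0.1)). With a filter of 10 CPM in 3 libraries, which leaves 24 of the 41 genes, 1 was higher and 8 lower past both cutoffs, and 5 higher and 17 lower by adjusted p. Against a fold change of 2 as the null, 2 were higher and 12 lower, and Epha7, Robo1 and Sema3f lost their calls. Leaving out 1 library at a time gave 2 to 3 genes higher and 15 to 16 lower past both cutoffs, and 7 to 9 higher and 26 to 28 lower by adjusted p. Efnb1 changed sign among these fits, which ranged from −0.113 without NP-G2-044 replicate 3 to 0.0266 without NP-G2-044 replicate 2, and it was above 0 also without IL-1β replicate 2 (0.0118) and NP-G2-044 replicate 1 (0.0176). Scaling by DESeq2 size factors or library size alone shifted the median of all genes by −0.0053 and −0.0020 on the log2 scale and changed the sign of no named gene. Slit1 reached −1.02 (adjusted p = 0.0206, edgeR) without NP-G2-044 replicate 2, and Plxna2 reached 1.06 without NP-G2-044 replicate 3. By adjusted p, Efnb3 lost its call with DESeq2 (adjusted p = 0.0703) and without IL-1β replicate 1 or 3 or NP-G2-044 replicate 3, Efna3 gained one in both limma fits on TPM, Efnb2 gained one with no filter and without IL-1β replicate 1 or NP-G2-044 replicate 1, Sema5a gained one without IL-1β replicate 1 or NP-G2-044 replicate 1 or 2, and Plxnd1 lost its own under DESeq2 size factors, DESeq2, both limma fits on TPM, the 10 CPM filter (adjusted p = 0.0573 to 0.328 over these) and without IL-1β replicate 2 or 3 or NP-G2-044 replicate 1 or 2. The cause was not tested. Same-numbered libraries did not deviate together (correlations −0.138, −0.00129 and 0.0144), and differently numbered ones gave −0.109 to 0.108. No pairing by number was detected, but with 3 libraries per group these values cannot tell whether the cultures were paired. With a replicate block 2 genes were higher and 15 lower past both cutoffs and 7 higher and 27 lower by adjusted p, Plxnd1 being the one that no longer passed (adjusted p = 0.0551, edgeR). Genes at 1 TPM or less rest on few reads, which limits the precision of their changes.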

Other observations

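The 22 guidance genes with too few reads for the test included most EphA receptors and 2 that had no read in any library, Robo4 and Slit2. Sema6d, a transmembrane semaphorin, had 40 reads in the 3 IL-1β libraries and 2 in the 3 NP-G2-044 libraries, Plxna4 had 35 and 13, Ntn4 had 18 and 6, and Sema4a had 18 and 7. Sema4f went the other way, with 1 and 16 reads. These genes were singled out after their values were seen and were not tested.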
